A study of Mus musculus with 3 samples.

Results

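Long noncoding RNA (lncRNA) genes, where they share no 10 kb bin with a protein-coding gene, were examined for 5-hydroxymethylcytosine (5hmC) in mouse cerebellum. The members were the 10 kb bins of the autosomes that overlap a RefSeq lncRNA gene by at least 1 bp and overlap no protein-coding gene. There were 21508 such bins, 8.98% of the 239486 autosomal bins and part of a table of 264399 bins. Of them, 21502 had a value in all 3 libraries. They touched 8153 of the 12408 autosomal lncRNA genes. The rule used the gene annotation alone and no measured level, but it was set with earlier results of these data known.

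The study comprised 3 libraries of genomic DNA. They were cerebellum after chronic sleep deprivation profiled by DDD-seq, control cerebellum profiled by ACE-seq, and control cerebellum profiled by DDD-seq. Double-stranded DNA deamination sequencing (DDD-seq) glycosylates 5hmC and then deaminates the other cytosines with the enzyme SsdAcat, so that a cytosine that is still read as C is counted as 5hmC. ACE-seq is the APOBEC-coupled counterpart, although the labels attach the SsdAcat protocol text to that library too. Strain, age, sex and the number of animals are not given in the sources used here, and both DDD-seq columns may pool runs or animals. Each group had 1 library, so a difference between libraries carries no replicate error and no test was possible. Each value is the authors' fraction for a bin, given here as a percent, and the reads behind it are unknown.

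5hmC is made from 5-methylcytosine by the TET dioxygenases and is abundant in neurons, where it is known to accumulate in the bodies of transcribed genes. LncRNA genes are transcribed by RNA polymerase II but code for no protein. Some act at the locus where they are made, some act elsewhere in the nucleus, and others serve mainly as the precursor of microRNAs or small nucleolar RNAs.

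The transcription start regions of 5 lncRNA genes are shown because these genes span the range of levels described below. The windows run from 250 bases before to 50 bases after the start in RefSeq (GRCm38.p6), are written 5′ to 3′ on the gene's strand, and have CpG dinucleotides in capitals. Gm4258 (chr1:137898214-137898513, plus strand, 0 CpG) had the highest gene level of all lncRNA genes with at least 5 member bins. Dleu2 (chr14:61682324-61682623, minus strand, 29 CpG), Lncpint (chr6:31218425-31218724, minus strand, 18 CpG) and Mir99ahg (chr16:77329078-77329377, plus strand, 8 CpG) also had high levels. Gm32846 (chr7:17527625-17527924, minus strand, 0 CpG) was among the 12 lowest.
Gm4258: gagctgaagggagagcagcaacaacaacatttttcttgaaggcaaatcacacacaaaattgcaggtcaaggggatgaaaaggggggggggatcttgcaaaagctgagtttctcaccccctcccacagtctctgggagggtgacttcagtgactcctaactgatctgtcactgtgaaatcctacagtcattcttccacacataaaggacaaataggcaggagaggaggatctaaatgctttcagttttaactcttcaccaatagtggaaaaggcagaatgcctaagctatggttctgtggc
Dleu2: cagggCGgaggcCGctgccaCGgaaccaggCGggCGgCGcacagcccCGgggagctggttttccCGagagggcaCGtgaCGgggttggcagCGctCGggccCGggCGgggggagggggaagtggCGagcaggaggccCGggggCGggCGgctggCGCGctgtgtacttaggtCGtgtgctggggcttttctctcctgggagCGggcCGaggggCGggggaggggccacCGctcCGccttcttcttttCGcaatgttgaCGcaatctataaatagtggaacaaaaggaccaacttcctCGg
Lncpint: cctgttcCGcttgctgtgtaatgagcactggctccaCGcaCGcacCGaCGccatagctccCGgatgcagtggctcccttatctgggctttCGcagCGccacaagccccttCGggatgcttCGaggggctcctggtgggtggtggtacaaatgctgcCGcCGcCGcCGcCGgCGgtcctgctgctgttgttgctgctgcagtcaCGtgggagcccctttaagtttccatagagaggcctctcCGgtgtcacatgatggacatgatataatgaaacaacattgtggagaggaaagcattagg
Mir99ahg: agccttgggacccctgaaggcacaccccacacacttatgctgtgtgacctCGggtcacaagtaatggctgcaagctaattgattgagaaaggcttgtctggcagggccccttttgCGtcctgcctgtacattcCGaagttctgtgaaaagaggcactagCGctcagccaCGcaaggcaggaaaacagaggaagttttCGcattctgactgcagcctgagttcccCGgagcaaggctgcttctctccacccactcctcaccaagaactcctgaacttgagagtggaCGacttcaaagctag
Gm32846: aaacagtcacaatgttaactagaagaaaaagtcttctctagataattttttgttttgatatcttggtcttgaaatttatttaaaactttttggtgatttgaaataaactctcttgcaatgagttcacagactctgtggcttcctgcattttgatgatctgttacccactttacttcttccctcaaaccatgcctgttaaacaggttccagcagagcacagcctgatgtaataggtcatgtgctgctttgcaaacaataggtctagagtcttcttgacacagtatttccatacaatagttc

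Dleu2 is also the host transcript of miR-15a and miR-16-1, and both lie in a single member bin (chr14:61630001-61640000). Their mature sequences are shown with the seed, bases 2 to 8, in capitals. The 5p arms share the seed AGCAGCA.
mmu-miR-15a-5p (chr14:61632075-61632096, minus strand): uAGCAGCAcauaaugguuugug
mmu-miR-16-5p (chr14:61631936-61631957, minus strand): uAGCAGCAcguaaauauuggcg

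As a class, lncRNA-only bins held a low level of 5hmC, between that of bins with no lncRNA or protein-coding gene and that of protein-coding bins. The median in sleep-deprived DDD-seq was 1.35% over lncRNA-only bins, against 1.29% over gene-free bins and 1.48% over protein-coding bins. In control ACE-seq these medians were 1.30%, 1.25% and 1.45%, and in control DDD-seq they were 1.35%, 1.29% and 1.49%. The order was the same in each library. The standard deviation (SD) over lncRNA-only bins was 0.568, 0.606 and 0.598 percentage points in sleep-deprived DDD-seq, control ACE-seq and control DDD-seq, far wider than the gap to gene-free bins. The upper tail differed more than the middle. The 95th percentile of lncRNA-only bins was 2.44% in sleep-deprived DDD-seq, close to the 2.46% of gene-free bins, whereas that of protein-coding bins was 3.65%. Over the 19 autosomes the median of lncRNA-only bins ran between 1.27% (chromosome 7) and 1.42% (chromosome 18) in sleep-deprived DDD-seq. It ran between 1.20% (chromosome 7) and 1.40% (chromosome 10) in control ACE-seq, and between 1.28% (chromosome 17) and 1.42% (chromosome 18) in control DDD-seq.

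Up to 1000 kb, lncRNA-only bins farther from protein-coding genes did not have a lower median. Bins under 10 kb from the nearest protein-coding gene had medians of 1.29% in sleep-deprived DDD-seq, 1.25% in control ACE-seq and 1.29% in control DDD-seq (3210 bins). At 10 to 50 kb the medians were 1.32%, 1.27% and 1.31% (6193 bins), and at 50 to 200 kb they were 1.36%, 1.32% and 1.36% (6911 bins). The highest medians stood at 200 to 1000 kb, with 1.44%, 1.37% and 1.42% (4756 bins). Beyond 1000 kb they were 1.32%, 1.28% and 1.32%, from 432 bins. Gene-free bins showed the same order up to 1000 kb, from 1.23%, 1.18% and 1.22% under 10 kb to 1.34%, 1.30% and 1.33% at 200 to 1000 kb. In each of the 5 distance classes and 3 libraries the lncRNA-only median lay above the gene-free one, by 0.013 to 0.099 points in sleep-deprived DDD-seq, 0.009 to 0.071 in control ACE-seq and 0.018 to 0.086 in control DDD-seq. The quartiles of the 2 kinds of bin overlapped throughout.

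**Figure D1:**
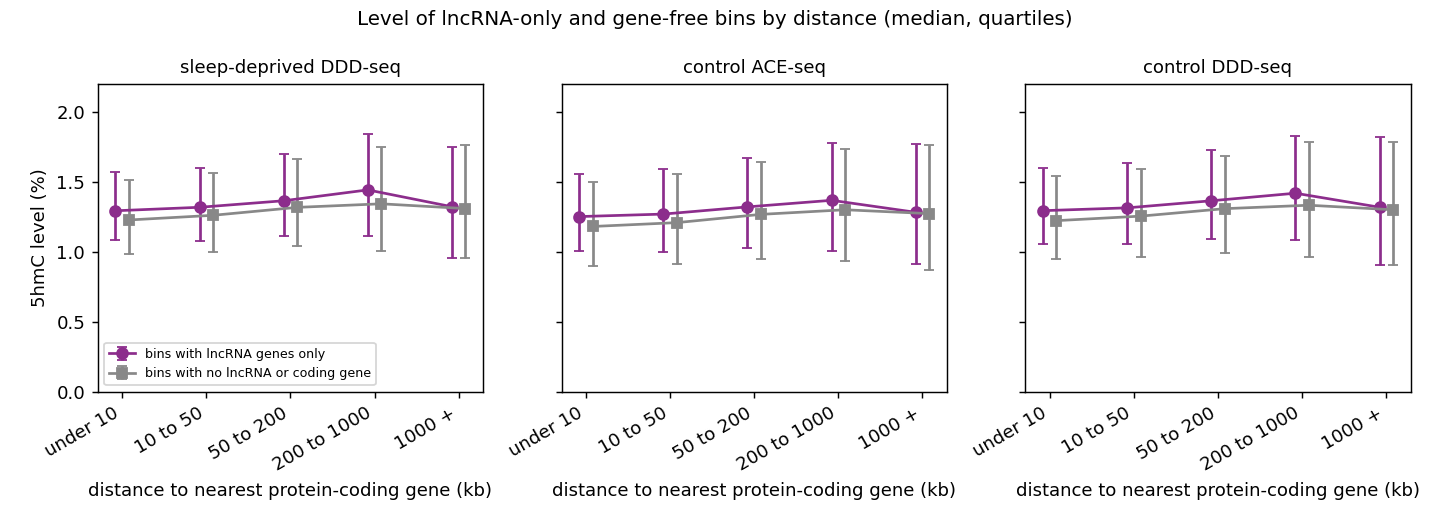
5hmC level (percent, vertical axis) of bins with lncRNA genes only (circles) and of gene-free bins (squares), by distance to the nearest protein-coding gene in kb (horizontal axis), in each of the 3 libraries. Points are medians and bars run from the lower to the upper quartile over bins; lncRNA-only medians are highest at 200 to 1000 kb, at 1.44%, 1.37% and 1.42%.

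Longer lncRNA genes had a slightly higher median. Bins whose longest lncRNA gene was under 10 kb had medians of 1.31% in sleep-deprived DDD-seq, 1.27% in control ACE-seq and 1.32% in control DDD-seq (4321 bins). At 10 to 50 kb they were 1.34%, 1.30% and 1.35% (8820 bins), at 50 to 200 kb 1.37%, 1.31% and 1.36% (6367 bins), and at 200 kb and over 1.41%, 1.32% and 1.37% (1994 bins). The longest lncRNA genes also lie farther out. Within the class 200 to 1000 kb from a protein-coding gene, bins of lncRNA genes of 200 kb and over had 1.48%, 1.38% and 1.43% (1069 bins), against 1.38%, 1.37% and 1.42% for bins of lncRNA genes under 10 kb (520 bins). At 50 to 200 kb the longest class was the lower one, with 1.34%, 1.27% and 1.32% (547 bins) against 1.34%, 1.33% and 1.34% (1045 bins). Among bins at least 50 kb out, the longest class minus the shortest was 0.060 points in sleep-deprived DDD-seq, -0.012 in control ACE-seq and -0.0034 in control DDD-seq.

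The level of lncRNA-only bins tracked that of the protein-coding gene next to them. For this the neighbour's level was the mean over its own bins in the same library, and for the medians only bins within 50 kb of a neighbour of at least 3 bins were used. Beside a protein-coding gene under 1%, the median of lncRNA-only bins was 1.09% in sleep-deprived DDD-seq (134 bins), 1.10% in control ACE-seq (294 bins) and 1.09% in control DDD-seq (159 bins). Beside one at 1 to 1.5% it was 1.26%, 1.22% and 1.26%, and beside one at 3% or more it was 1.51%, 1.52% and 1.56% (438, 421 and 459 bins). Gene-free bins had 1.01%, 1.02% and 1.03% in the lowest of these classes and 1.52%, 1.48% and 1.54% in the highest. The rank correlation between a lncRNA-only bin and its neighbour was weak (Spearman's rho across bins 0.264, 0.238 and 0.241 under 10 kb, with 2083 bins). It was 0.057, 0.034 and 0.027 beyond 1000 kb, with 316 bins. Bins that share a neighbour, a library and its depth are not independent.

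The body of a lncRNA gene stood out little from the gene-free bins around it. For each gene with at least 5 member bins, the mean over those bins was compared with the mean of gene-free bins within 100 kb (at least 5 of them). Over 998 lncRNA genes the median body minus flank was -0.002 points in sleep-deprived DDD-seq, 0.002 in control ACE-seq and 0.014 in control DDD-seq. The body was the higher in 49.6%, 50.7% and 52.6% of them. For 3979 protein-coding genes, whose bins may also hold a lncRNA gene, it was 0.249, 0.261 and 0.256 points. Their body was higher in 76.9%, 77.4% and 75.7%. The contrast between the gene types was present at each size. Among genes of 20 or more bins the median was 0.059, 0.064 and 0.027 points for 58 lncRNA genes and 0.397, 0.430 and 0.407 points for 882 protein-coding genes. The flank classes use the same gene-free bins for neighbouring genes, so genes are not independent points.

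**Figure D2:**
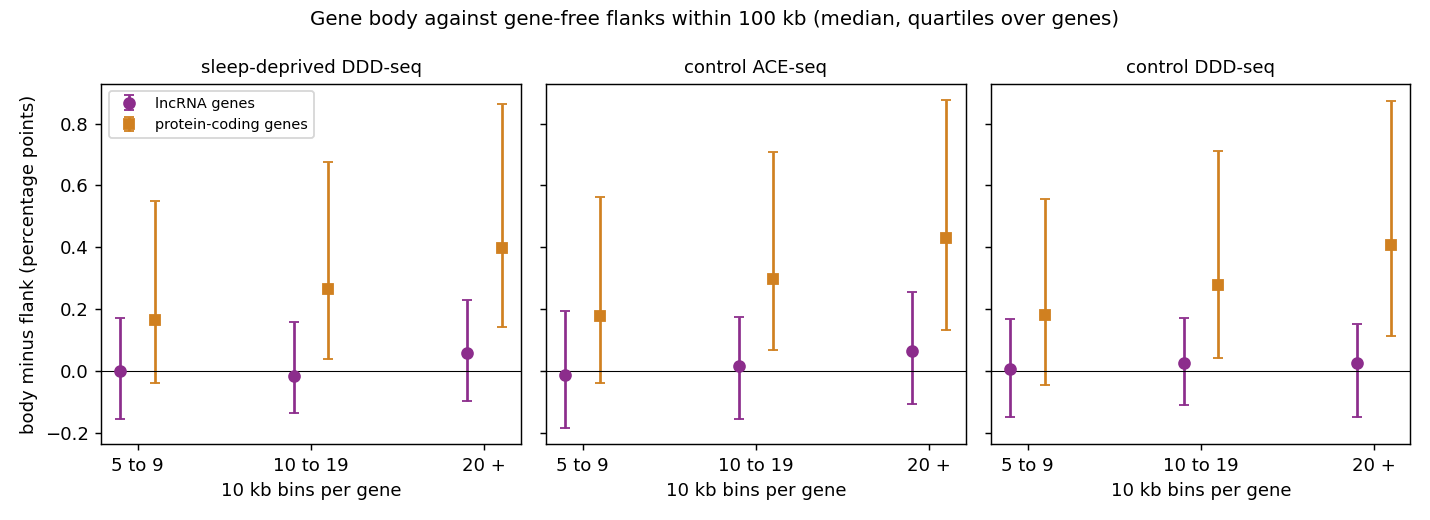
Gene body minus gene-free flank within 100 kb (percentage points, vertical axis) for lncRNA genes (circles) and protein-coding genes (squares), by the number of 10 kb bins per gene, in each of the 3 libraries. Points are medians and bars the quartiles over genes; lncRNA medians stay between -0.02 and 0.06 points, while protein-coding medians lie between 0.17 and 0.43.

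A small set of lncRNA genes did exceed its surroundings. Of the 998, 17 (1.70%) were at least 0.5 points above their flank in all 3 libraries, where 20.5% of all 4977 genes of both types were. Among protein-coding genes 1004 of 3979 (25.2%) passed. The 17 were Gm4258, Gm2694, Gm17750, Dleu2, A330076H08Rik, Gm32875, Lncpint, 5031425E22Rik, 1700023F02Rik, Gm42185, Gm32624, Gm28590, Gm4681, Gm14066, Gm29687, Gm33276 and Tunar. In the other direction 4 lncRNA genes were at least 0.5 points below their flank in all 3 libraries (Gm40757, 4933432I03Rik, 4930546C10Rik and Gm39400), with a share of 0.181% over all genes.

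**Figure D3:**
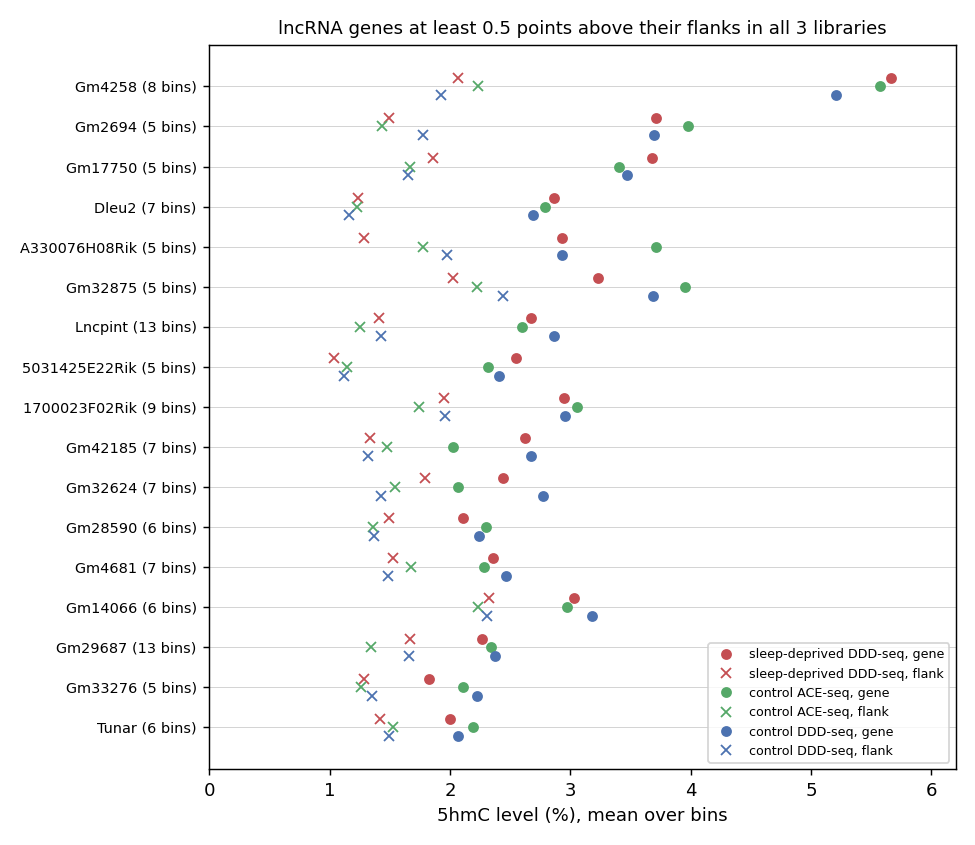
Mean 5hmC level (percent, horizontal axis) over the member bins of 17 lncRNA genes (circles) and over their gene-free flanks (crosses), coloured by library. Gm4258 lies at 5.21% to 5.67% with flanks near 2%, and Dleu2 at 2.69% to 2.86% with flanks near 1.2%.

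Gm4258, on chromosome 1 (137898464 to 137963020), had the highest level of the 1103 lncRNA genes with at least 5 member bins. Its mean over 8 bins was 5.67% in sleep-deprived DDD-seq, 5.57% in control ACE-seq and 5.21% in control DDD-seq. Its flanks held 2.07%, 2.23% and 1.93%. The bin with the start shown above had 2.49%, 2.21% and 2.30%. The next bins in the direction of transcription had 6.04%, 7.46% and 6.34%, and then 7.77%, 7.89% and 7.26%. The first bin was thus near the flank, but it runs from 137890001 to 137900000 and mostly lies upstream of the gene. All 7 later bins were above 4% in each library. The last of them (137960001 to 137970000), at 5.44%, 5.31% and 4.42%, lies mostly beyond the annotated end of the gene. The nearest protein-coding gene was Ptprc, which encodes the leukocyte antigen CD45, 99.8 kb away, with a body level of 1.65%, 1.68% and 1.59%.

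Gm2694, on chromosome 8, lies 219 bp from Cbln1, which encodes the synapse organiser cerebellin 1 secreted by cerebellar granule cells. Its 5 member bins averaged 3.71% in sleep-deprived DDD-seq, 3.98% in control ACE-seq and 3.70% in control DDD-seq, against 1.49%, 1.43% and 1.78% in its flanks. The bins ran from 2.60% to 5.66%, from 2.12% to 7.53% and from 2.44% to 6.15%. Cbln1 itself, over 2 bins, was at 1.16%, 1.72% and 1.06%, lower than the mean of the member bins of Gm2694 in each library. Gm2694 begins at 87472812, before its first member bin at 87480001. The bin with that end of Gm2694 also holds part of Cbln1 and counts only for Cbln1. The comparison therefore does not fully separate the genes.

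Dleu2, on chromosome 14 (61602836 to 61682373), averaged 2.86%, 2.79% and 2.69% over 7 member bins, against 1.23%, 1.23% and 1.16% in its flanks. Dleu2 overlaps the protein-coding genes Trim13 by 7452 bp and Kcnrg by 5377 bp, and has no member bin before 61620001. The bin with its CpG-rich start had 1.25% in sleep-deprived DDD-seq, 1.03% in control ACE-seq and 1.26% in control DDD-seq, the lowest of the 7 in each library. That bin runs from 61680001 to 61690000, so most of it lies upstream of the gene. The bin that holds miR-15a and miR-16-1 had 5.38%, 6.11% and 4.98%, the highest of the 7. Across all member bins with a microRNA inside a lncRNA gene (66 bins, 89 microRNA genes), this bin was the highest in each library. The median of the 66 was 1.37%, 1.32% and 1.29%, close to the 1.35%, 1.30% and 1.35% of the remaining member bins, so carrying a microRNA did not go with a high level in general.

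Lncpint, a p53-induced lncRNA, averaged 2.67%, 2.60% and 2.87% over 13 bins, with 1.41%, 1.25% and 1.43% in its flanks. Its lowest bin was at 1.79%, 1.66% and 1.52% and its highest at 3.97%, 3.62% and 4.50%. Tunar, a lncRNA of the neural lineage, averaged 2.0%, 2.19% and 2.06% over 6 bins against flanks at 1.42%, 1.53% and 1.50%. 5031425E22Rik overlaps Kmt2e, which encodes a histone methyltransferase family protein, by 1318 bp at 1 end. Its 5 bins without a protein-coding gene averaged 2.55%, 2.32% and 2.41% against 1.03%, 1.15% and 1.12%. A330076H08Rik, in the imprinted region of chromosome 7 that also holds Ndn, had 2.93%, 3.71% and 2.93% against 1.29%, 1.77% and 1.98%. Its ACE-seq mean included 1 bin at 7.49%, which was at 3.23% in sleep-deprived DDD-seq and 3.78% in control DDD-seq.

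**Figure D4:**
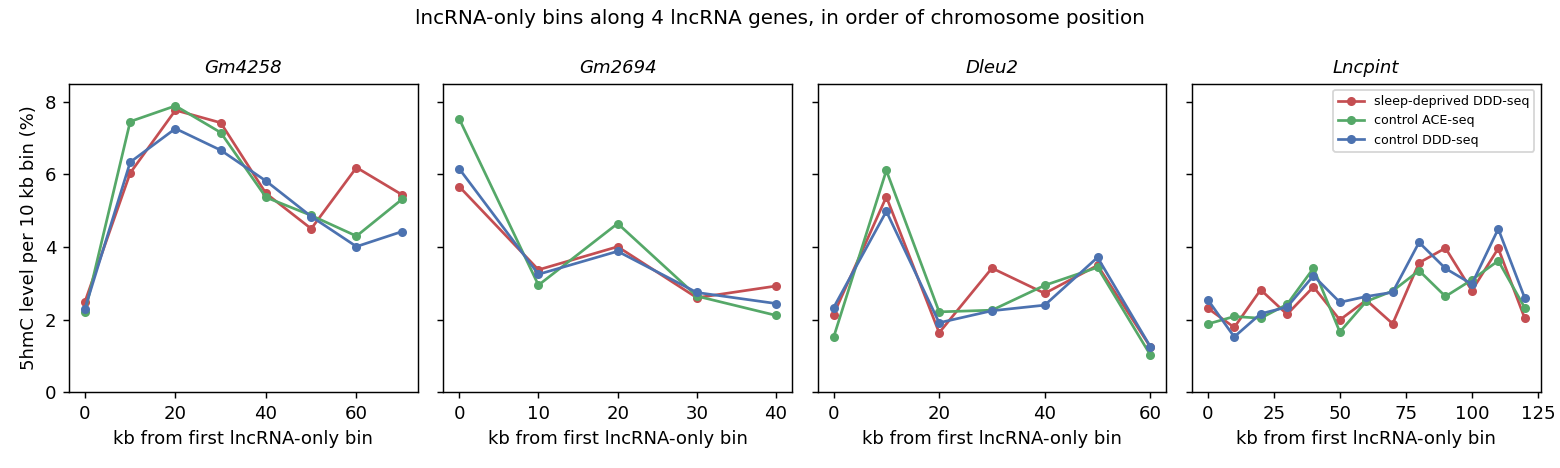
5hmC level of each 10 kb lncRNA-only bin (percent, vertical axis) along Gm4258, Gm2694, Dleu2 and Lncpint, against distance in kb from the first such bin in chromosome order, coloured by library. Gm4258 is transcribed left to right, Dleu2 and Lncpint right to left, and the direction of Gm2694 was not established here. The highest bin of Gm4258 lies at 20 kb (7.77%, 7.89% and 7.26%) and that of Dleu2 at 10 kb (5.38%, 6.11% and 4.98%).

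The other lncRNA genes among the 12 highest were Gm32875, Gm31409, Gm17750, Gm34809, Gm14066, 1700023F02Rik, Gm40767 and Gm29478. Their flanks in control DDD-seq held between 1.65% (Gm17750) and 2.58% (Gm31409). Gm34809 had 3.09% in sleep-deprived DDD-seq, 2.81% in control ACE-seq and 3.34% in control DDD-seq, and its nearest protein-coding gene Etv1, an ETS transcription factor gene, had 6.70%, 6.42% and 6.52% at a distance of 204.0 kb. Gm40767 had 2.67%, 2.86% and 3.05% beside Trhde at 3.20%, 3.23% and 3.18%. Gm29478 had 2.61%, 2.99% and 2.84% beside Zic4, a zinc finger gene of cerebellar development, at 1.24%, 0.981% and 0.986%. Here the lncRNA gene was the higher one.

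The fixed lists of known lncRNAs were chosen with earlier results of these data known, so their order is a description only. Hosts of microRNAs had the highest median of gene means among them. A member bin was present in 9 of the 11 such hosts listed by RefSeq, and their median was 1.81% in sleep-deprived DDD-seq, 2.0% in control ACE-seq and 1.76% in control DDD-seq, against 1.34%, 1.30% and 1.35% over all 8152 lncRNA genes. Above the median of all genes were 8, 7 and 7 of the 9. Mir99ahg had 2.39%, 2.64% and 2.49% over 24 bins, below its flanks at 2.86%, 2.79% and 2.92%. Mir124-2hg, host of the neuronal microRNA miR-124, had 2.33%, 2.55% and 2.83% over 3 bins. Mir100hg was at 1.56%, 1.49% and 1.46% over 25 bins and Mir17hg, host of the oncogenic miR-17 cluster, at 1.23%, 1.23% and 1.24% in 1 bin.

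Imprinted lncRNA genes (9 with a member bin of 11 in the table) had a median of 1.55%, 1.48% and 1.60%. Rian, in the Dlk1-Dio3 domain, had 2.33%, 2.02% and 2.40% over 6 bins, while its neighbour Meg3 had 1.07%, 1.48% and 1.54% over 2 bins. Airn, which silences Igf2r on the paternal allele, had 1.55%, 1.62% and 1.59% over 6 bins. H19 had 1.24%, 1.34% and 1.25% in 1 bin.

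Snhg14, the host of the brain snoRNA clusters of the Prader-Willi region and the antisense transcript of Ube3a, had 62 member bins on chromosome 7 with a mean of 1.55% in sleep-deprived DDD-seq, 1.50% in control ACE-seq and 1.60% in control DDD-seq. The level was uneven along the gene, which runs on the minus strand. The 12 member bins nearest to its 5′ end (59860001 to 59980000) averaged 2.33%, 2.45% and 2.27%. The gene runs on to 60450177 with no member bin beyond 59980000, so this block lies inside the gene, not at its 5′ end. Its ACE-seq mean included 1 bin at 8.81%, which was at 3.25% in sleep-deprived DDD-seq and 2.73% in control DDD-seq. The remaining 4 blocks of 12 or 13 bins lay between 1.25% and 1.46%, between 1.10% and 1.36%, and between 1.11% and 1.78%. Ipw lies inside Snhg14 and shares its bins.

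Brain lncRNA genes (20 with a member bin of 25 in the table) had a median of 1.34%, 1.48% and 1.51%, and 10, 13 and 14 of the 20 were above the median of all lncRNA genes. Rmst, a regulator of neurogenesis, had 1.78%, 1.87% and 1.99% over 9 bins, and Sox2ot, which overlaps the stem cell factor gene Sox2, had 1.56%, 1.49% and 1.42% over 10 bins. Dlx6os1 (Evf2), a lncRNA of forebrain interneurons, had 1.18%, 1.16% and 0.848% over 4 bins. Nuclear and housekeeping lncRNA genes (8 of 18) had 1.41%, 1.52% and 1.41%. Within this list Malat1, a nuclear speckle RNA, had 1.14%, 1.12% and 1.35% over 2 bins and Neat1, the scaffold of paraspeckles, had 1.45%, 1.50% and 1.48% over 3 bins. The list of development and homeobox clusters (7 of 15) had 1.36%, 1.28% and 1.18%, with Hotair at 0.756%, 0.990% and 1.13% in its only bin and Fendrr at 1.13%, 1.14% and 1.12% over 3 bins. The list of blood, liver and other tissues (5 of 10) had 1.35%, 1.44% and 1.34%, with Morrbid, a myeloid lncRNA, at 1.43%, 1.44% and 1.42% over 14 bins.

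The 12 lowest lncRNA genes were A630010A05Rik, Gm32846, LOC108169027, Gm28453, Gm26715, Gm35507, 1700010N08Rik, Gm26552, AY036118, Gm32877, Gm26893 and Gm41087. Of these, 8 had a bin listed at 0 in at least 1 library, and 4 had none (Gm28453, Gm35507, 1700010N08Rik and AY036118). Gm41087, Gm26893 and Gm26552 all lie on chromosome 14 within a short stretch (5105043 to 5574367), and each had 4 or 5 of its bins at 0 in at least 1 library. Gm26893 was listed at 0 throughout in sleep-deprived DDD-seq and control ACE-seq, with a mean of 1.61% in control DDD-seq. Such a 0 cannot be told from a lack of reads. Over all lncRNA-only bins, 0.237% were listed at 0 in sleep-deprived DDD-seq, 0.553% in control ACE-seq and 0.419% in control DDD-seq, against 0.548%, 1.06% and 0.991% of gene-free bins. Gm32846, near the pregnancy-specific glycoprotein genes, had 14 bins at a mean of 0.896%, 0.875% and 0.930%. Its flanks held 0.839%, 0.981% and 1.01%, so the gene was above its flanks in sleep-deprived DDD-seq and below them in both control libraries. The start window shown above holds no CpG.

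The median of gene means over the 1103 lncRNA genes with at least 5 member bins was 1.41%, 1.34% and 1.40%. Of the 5 longest, Snhg14 (described above), 1700019L22Rik and 5730522E02Rik were above it in each library. Gm32647 was below it in each, and Gm20754 was on both sides of it. Gm32647, 1284 kb long with 129 member bins, had 1.30%, 1.28% and 1.39%. 1700019L22Rik had 1.67%, 1.42% and 1.44% over 81 bins, 5730522E02Rik 1.63%, 1.54% and 1.55% over 61 bins, and Gm20754 1.46%, 1.33% and 1.43% over 54 bins.

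High bins were rare. At 3% or more in all 3 libraries were 127 of the 21502 lncRNA-only bins (0.591%), against 0.543% of gene-free bins, 5.27% of protein-coding bins and 2.75% of all autosomal bins. By distance the share was 0.249% under 10 kb, 0.371% at 10 to 50 kb, 0.55% at 50 to 200 kb, 1.2% at 200 to 1000 kb and 0.231% beyond. Gene-free bins had 0.255%, 0.289%, 0.63%, 0.729% and 0.708% in these classes, so neither kind of bin had the higher share throughout. By lncRNA length the share was 0.301% under 10 kb and 0.953% at 200 kb and over. The 127 bins fell in 96 lncRNA genes, of which 20 had more than 1, with 7 in Gm4258 and 4 each in Gm14061 and Gm29478. Single bins above 5% in all libraries were also seen in C230029F24Rik (6.41%, 5.37% and 6.95%), Gm40419 (6.22%, 5.59% and 6.52%) and 1700023F02Rik (5.83%, 6.98% and 5.18%), 251.2 to 1651 kb from a protein-coding gene.

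LncRNA starts in these bins were poor in CpG. The 300-base windows of 5074 lncRNA starts in member bins had a median of 3 CpG, and 8.34% had at least 10. Over all 9005 autosomal lncRNA windows the median was 4 and the share 19.9%, and over 9840 protein-coding windows it was 10 and 51.1%. The level of the bin with the start differed little by CpG count. It was 1.35% in sleep-deprived DDD-seq, 1.28% in control ACE-seq and 1.31% in control DDD-seq with 0 to 1 CpG (1152 starts), and 1.26%, 1.28% and 1.27% with 20 or more (87 starts). The 12 highest lncRNA genes spanned 0 to 29 CpG among the 11 with a window, and the 12 lowest 0 to 9. Member bins with a lncRNA start had medians of 1.34%, 1.30% and 1.34% (4852 bins), against 1.35%, 1.30% and 1.35% without one.

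The sleep-deprived and the control DDD-seq library differed over the class as a whole by a small fraction of its spread. Bin by bin they were only loosely correlated (Pearson's r 0.558, Spearman's rho 0.421). Sleep-deprived minus control DDD-seq over the 21502 bins gave a median of 0.01 points, a mean of 0.009 points and an SD over bins of 0.549. It was at least 1 point up in 716 bins (3.33%, where 4.51% of all autosomal bins were) and at least 1 point down in 701 (3.26%, where 4.48% were). By length the median difference was between 0.002 and 0.045 points, the largest for lncRNA genes of 200 kb and over, and by distance between -0.008 and 0.022 points. The SD over bins in these classes was 0.461 to 0.796.

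Averaging over more bins of a gene narrowed the spread of the sleep-deprived minus control difference over genes. Its median was not narrowed, at -0.009 points with 1 bin and 0.032 with 20 or more. The SD over lncRNA genes was 0.451 points with 1 bin, 0.319 with 2 to 4, 0.234 with 5 to 9, 0.149 with 10 to 19 and 0.117 with 20 or more. Of 1103 lncRNA genes with at least 5 bins, 13 (1.18%) were at least 0.5 points higher in sleep-deprived DDD-seq. In 12 (1.09%) the level was at least 0.5 points lower. Over all genes with at least 5 bins, protein-coding ones included, the shares were 0.802% and 1.04%. Bin numbers were not matched between the gene types, and 803 of the 1103 lncRNA genes had 5 to 9 bins. With genes that have a bin at 0 left out, 8 and 7 of 1037 remained. The largest differences upward were in Gm41087 (1.23 points), Gm32877 (0.93), Gm41219 (0.76), Gm31819 (0.75) and Gm31831 (0.72), and only Gm31819 of these had no bin at 0. The largest downward were in Gm26893 (-1.61 points), 1700108N06Rik (-1.36), Gm33382 (-1.0), 4933416M06Rik (-0.82) and Gm26630 (-0.71), and only 4933416M06Rik had no bin at 0. Gm31819, whose nearest protein-coding gene is the axon guidance receptor gene Dcc, was at 2.01% in sleep-deprived DDD-seq against 1.27% in control DDD-seq, and 4933416M06Rik was at 1.40% against 2.21%. Both rest on 5 bins. In ACE-seq of control cerebellum they were at 1.67% and 1.65%, between the 2 DDD-seq values. Gm4258 was at 5.67% against 5.21%, and Dleu2 at 2.86% against 2.69%. In the imprinted list 8 of 9 genes were lower in sleep-deprived DDD-seq, with a median of -0.05 points, where 4052 of all 8152 lncRNA genes were lower. In the list of development and homeobox clusters 6 of 7 genes were higher (median 0.09 points), and among microRNA hosts 6 of 9 were (median 0.05 points). The brain list had 8 of 20 higher, the nuclear and housekeeping list 3 of 8, and the list of blood, liver and other tissues 3 of 5. Ipw and Snhg14 share bins in the imprinted list, and its 8 lower genes ran from -0.003 (A330076H08Rik) to -0.46 points (Meg3). Several of these values are small beside the SD over genes given above. Genes of a list are not replicates, and a shift of any list was not tested.

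**Figure D5:**
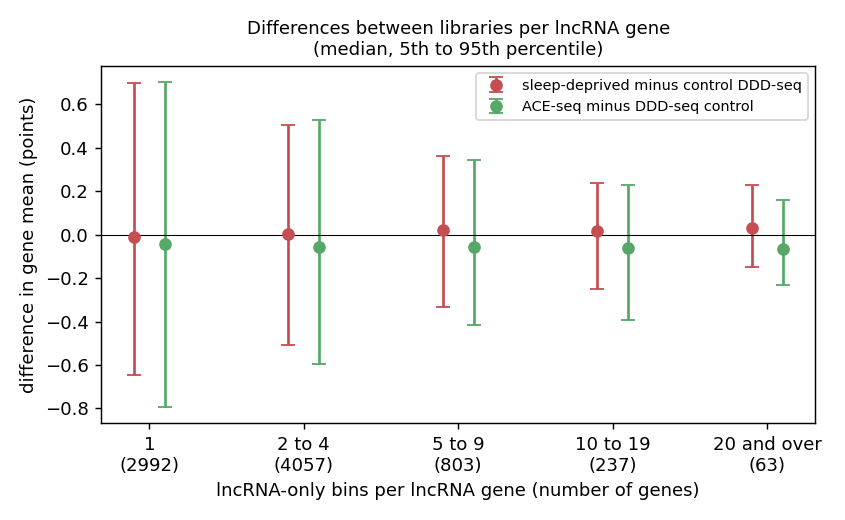
Difference in the mean level of a lncRNA gene (percentage points, vertical axis) between sleep-deprived and control DDD-seq and between control ACE-seq and control DDD-seq, by the number of lncRNA-only bins per gene (horizontal axis, number of genes in brackets). Points are medians and bars run from the 5th to the 95th percentile over genes; with 20 or more bins the SD over genes was 0.117 and 0.134 points.

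The medians of the methods also differed little over lncRNA-only bins. Bin by bin the control libraries were only loosely correlated (Pearson's r 0.508, Spearman's rho 0.377). ACE-seq minus DDD-seq of control cerebellum had a median of -0.05 points and an SD over bins of 0.597, and the median over all autosomal bins was -0.04. It was at least 1 point up in 778 bins (3.62%, where 4.8% of all autosomal bins were) and at least 1 point down in 1027 (4.78%, where 6.06% were). Of the 1103 lncRNA genes with at least 5 bins, 14 (1.27%) were at least 0.5 points higher in ACE-seq. In 32 (2.9%) the level was at least 0.5 points lower. Over all genes with at least 5 bins the shares were 0.962% and 1.68%, again not matched for bin number. Without genes that have a bin at 0 the counts were 11 and 25 of 1037. The largest differences upward were in Gm41219 (1.71 points), Gm26552 (1.31), Gm16070 (0.90), A330076H08Rik (0.78) and Gm39865 (0.72). The largest downward were in Gm26893 (-1.61 points), Gm40062 (-0.97), 1700108N06Rik (-0.95), Gm32624 (-0.71) and Gm30658 (-0.70). Gm41219, Gm26552, Gm26893 and 1700108N06Rik had bins at 0. Gm40062 had 0.543% in ACE-seq against 1.51% in control DDD-seq over 10 bins, with 1.42% in sleep-deprived DDD-seq. Gm39865, near Ube2e3, had 1.98% in ACE-seq against 1.26% in control DDD-seq over 8 bins. Both comparisons share the control DDD-seq library.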

How the data were processed

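The authors deposited 1 table with a fraction of 5hmC per 10 kb bin and library, per the file headers and the values; fractions were multiplied by 100. The submitters' processing notes list Bismark, Trimmomatic and FastQC without settings. The averaging within a bin, the cytosine contexts and any coverage filter are not stated in those sources, and the depth per bin is unknown. The notes name hg19, but the bins cover mouse chromosomes. The last bin of each autosome ended 1.33 to 132.3 kb after the last gene of the RefSeq GRCm38.p6 gene table, so bins were read as GRCm38.

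Bins were joined to RefSeq genes by an overlap of at least 1 bp (Python 3.11.15, numpy 2.4.6, pandas 2.3.3). A gene level is the mean over its member bins, and the checks of these steps ran on simulated data. Genes were named by rule: among lncRNA genes with at least 5 member bins, the 12 highest, the 12 lowest, the 5 largest differences each way and the 5 longest, and, whatever their number of bins, known lncRNAs on 6 lists (examples are given). Distances of bins run from the bin's edge and those of named genes from the gene's end. Genes singled out by flank, microRNA or high bins were chosen after their values were seen. The members and lists were chosen with earlier results of these data known. LncRNA genes that overlap in a bin share its value.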

Additional observations from a re-analysis of the deposited data

How the results depend on the processing

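With 1 library per group, a value counted as moved when it changed by more than 1 SD of the same value over the 19 autosomes, and a count when it changed by more than 1.5 times. Of 57 alternatives, 43 left their result in place, 10 moved it and 4 reversed its sign. Taking the mean instead of the median moved the level of lncRNA-only bins to 1.44% in sleep-deprived DDD-seq, 1.38% in control ACE-seq and 1.43% in control DDD-seq. Keeping bins at least 50 kb from a protein-coding gene turned the difference between the longest and shortest lncRNA classes to -0.012 points (control ACE-seq) and -0.0034 points (control DDD-seq). A 50 kb flank turned the median body minus flank in sleep-deprived DDD-seq to 0.0072 points, and medians over bins to 0.0026. At 4% in all 3 libraries 32 bins remained. At 2 points, sleep-deprived DDD-seq was higher in 44 bins and lower in 48, and control ACE-seq was higher in 47 and lower in 70, against control DDD-seq. Leaving out genes with a bin at 0, an alternative added after seeing the data, left 8 lncRNA genes higher and 7 lower after sleep deprivation. The cause of these shifts was not tested, beyond the stricter thresholds. No paired analysis was possible because each group has 1 library, and for the same reason no replicate could be left out. The unknown depth of each bin limits all values, those listed at 0 most.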
